A study of Mus musculus with 37 samples.

Results

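The genes described here are the Spint inhibitors and the proteins around them: the inhibitors Spint1 and Spint2, the membrane serine proteases St14, Prss8, Tmprss9 and Hpn, and the hepatocyte growth factor genes Hgfac, Hgf, Met and Mst1r. These 10 genes were taken by name from the 48795 genes of the count table, in order to ask whether the proteases rise with their inhibitors when neurons lose the histone demethylase Kdm1a. The set was chosen by its raw counts in the 3 Kdm1a-ifKO and 3 control libraries, with that contrast already known, so the fold changes of the 10 genes are given as a description, and no significance is read from them. The RNA came from whole hippocampus of male C57BL/6J mice, 3 per group and 1 library each. Kdm1a-ifKO mice carried floxed Kdm1a and a Camk2a-driven creERT2, and controls, labelled WT, were littermates without the recombinase. Both groups received tamoxifen at 8 weeks of age, and the age at collection is not given for these libraries in the sources used here. The driver limits recombination to principal neurons of the forebrain, and the other cells of the tissue keep Kdm1a. CTCF loops came from 1 ChIA-PET library of sorted nuclei of Camk2a-positive neurons from mice of 12 weeks that had received tamoxifen and carried a nuclear GFP tag and no Kdm1a deletion.

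Spint1 and Spint2 encode hepatocyte growth factor activator inhibitors, transmembrane proteins with Kunitz domains that block trypsin-like serine proteases at the surface of epithelial cells. Their targets include matriptase (St14), prostasin (Prss8), hepsin (Hpn) and the secreted HGF activator (Hgfac). Several of these proteases cleave the inactive precursor of hepatocyte growth factor (Hgf) into the ligand of the receptor Met, and the related ligand MSP, encoded by Mst1, acts on the receptor Mst1r. The system is best known from epithelia, where it sets barrier function and the pericellular activation of growth factors.

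The start regions of both inhibitor genes are shown because they share a composition that the choice of genes did not use. The 250 bases before each RefSeq start (GRCm38.p6) are given 5′ to 3′ on the strand of the gene, with the letters GGGCGG and their reverse complement CCGCCC in capitals. The Spint1 window lies at chr2:119237110-119237359 on the plus strand and the Spint2 window at chr7:29281978-29282227 on the minus strand, and GENCODE places no gene in either one.
Spint1: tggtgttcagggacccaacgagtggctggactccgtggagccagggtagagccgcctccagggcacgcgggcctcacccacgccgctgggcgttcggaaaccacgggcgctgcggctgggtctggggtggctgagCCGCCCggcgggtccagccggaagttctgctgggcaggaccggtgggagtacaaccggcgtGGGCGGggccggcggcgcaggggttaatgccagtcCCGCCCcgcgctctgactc
Spint2: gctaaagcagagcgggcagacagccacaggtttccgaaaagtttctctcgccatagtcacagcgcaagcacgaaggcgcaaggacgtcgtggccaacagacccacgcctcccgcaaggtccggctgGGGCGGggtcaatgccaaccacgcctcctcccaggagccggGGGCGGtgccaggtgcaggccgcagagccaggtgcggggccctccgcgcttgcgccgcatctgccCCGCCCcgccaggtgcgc
Each window held 3 matches to the GC box letters. The Spint1 window was 72.8% G and C with 26 CpG dinucleotides, and the Spint2 window was 69.6% G and C with 24.

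Depth was similar in the 6 libraries, between 18985542 and 19469947 counts, and 16799 genes passed the filter on low counts. Kdm1a fell from 80.1 ± 0.897 CPM (SD, n = 3; CPM is the count scaled by library size) in controls to 38.2 ± 1.23 in Kdm1a-ifKOs, a log2 fold change (log2FC, Kdm1a-ifKO over control) of −1.07 (SE 0.0559, adjusted p = 6.24e-08 in edgeR). The transcript that remained in whole tissue includes that of cells without the recombinase. Camk2a and Slc17a7, which define excitatory neurons, were abundant in each library, with at least 85378 and 24766 counts. The library of Kdm1a-ifKO 2 had the highest summed level of the 5 markers of meninges and fibroblasts. This sum was 129.7 CPM, against 75.7 to 85.1 in controls and 42.5 to 81.0 in the other Kdm1a-ifKOs. Col1a1, Col1a2 and Slc6a13 stood apart in that library. Dcn (64.9 CPM, against 62.7 in control 2) and Lum (4.72, against 4.14 in control 3) were only slightly above the next library. The low sum of Kdm1a-ifKO 3 included a Dcn level of 23.2 CPM. None of these 5 markers was at 0 in any library. Microglia markers were also higher in Kdm1a-ifKOs, with 3 of 6 called and a summed level of 333.6 to 418.6 CPM against 292.3 to 318.0 in controls, as was 1 of 5 astrocyte markers. Of the 6 markers of excitatory neurons, 1 (Neurod6) was called lower. The 7 markers of choroid plexus, an epithelium, summed to 10.8 to 38.2 CPM in controls and 6.22 to 12.9 in Kdm1a-ifKOs. Of these markers 5 were tested, and edgeR and DESeq2 called 0 of the 5, with 1 at an unadjusted p under 0.05 in edgeR. The part of these cells in the values below was not tested.

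Of the 10 genes, 8 passed the filter on low counts, St14 only with the Kdm1a-ifKO libraries counted. Spint1, Spint2 and Tmprss9, 3 of the 8, lay past an adjusted p of 0.05 and a log2FC of 1, which is a description and not a test because the genes were chosen on these values. Over all tested genes 1.36% were called higher by that rule and 0.0655% lower, and nothing is read from the comparison of the shares. By adjusted p alone, 3 of the 8 were past the threshold, beside 6.04% higher and 2.82% lower of all tested genes, or 8.85% in either direction. The libraries of the groups did not overlap, with Kdm1a-ifKOs higher, for Spint1, Spint2, St14, Tmprss9, Hpn and Mst1r, while 15.7% of all tested genes were separated in that direction.

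Spint1 had the largest fold change of the 10 genes. Its level in TPM, a unit that divides counts by exon length and scales each library to the same sum, was 2.94, 3.92 and 4.08 TPM in the 3 controls and 46.9, 48.5 and 50.4 TPM in the 3 Kdm1a-ifKOs. The groups lay far apart, and the spread within each group was small beside the gap, with a log2FC of 3.73 (SE 0.112). Spint1 (ENSMUSG00000027315) lies at chr2:119237362-119249527, where no other annotated gene overlaps it. Spint2, the related inhibitor, started from a higher level. It stood at 10.2, 12.2 and 9.53 TPM in controls and at 21.3, 24.3 and 20.9 TPM in Kdm1a-ifKOs. The groups did not overlap here either, but the log2FC was only 1.05 (SE 0.0998), just past the limit of 1. It was 0.98 without control 3 and 0.98 without Kdm1a-ifKO 2, so 1 library decides on which side of that limit Spint2 falls. Spint2 (ENSMUSG00000074227) spans chr7:29256323-29281912, also without an overlapping gene.

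The unequal changes turned the order of the inhibitors around. In controls Spint2 was the most abundant of the 10 genes, at 10.6 ± 1.38 TPM, and each of its libraries was above each Spint1 library. In Kdm1a-ifKOs Spint1 led at 48.6 ± 1.75 TPM, again with no overlap with Spint2 at 22.2 ± 1.85 TPM. The ratio of Spint1 to Spint2, in TPM, was 0.346 ± 0.0729 in controls and 2.21 ± 0.208 in Kdm1a-ifKOs (n = 3 each).

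**Figure D1:**
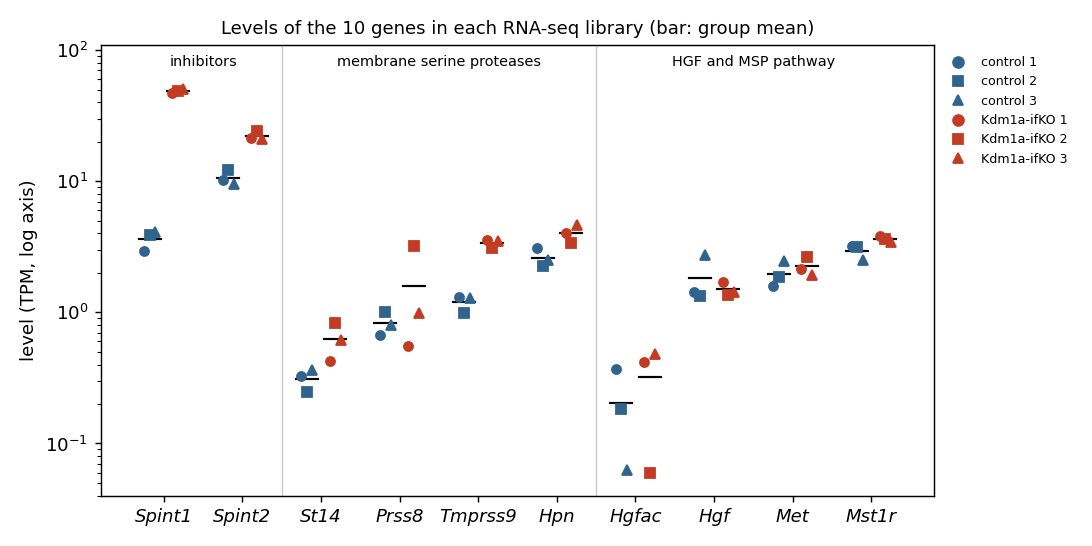
Level of each of the 10 genes in TPM on a log axis, with 1 point per RNA-seq library (blue, control; red, Kdm1a-ifKO) and a bar at the mean of the 3 libraries. Spint1 moves from between 2.94 and 4.08 TPM to between 46.9 and 50.4 TPM, and the points of Hgf and Met overlap between the groups.

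Tmprss9 had the largest log2FC of the 3 membrane proteases that could be fitted. The gene encodes polyserase, a transmembrane protein with serine protease domains in tandem. Its level was 1.31, 0.985 and 1.28 TPM in controls and 3.54, 3.11 and 3.48 TPM in Kdm1a-ifKOs. The lowest Kdm1a-ifKO library was thus above the highest control, with a log2FC of 1.49 (SE 0.209). Tmprss9 (ENSMUSG00000059406, chr10:80871848-80899492, plus strand) overlaps Timm13 on the opposite strand, and the counting is not stated to use strand, so reads of the pair may be mixed.

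Hpn, the transmembrane protease hepsin, lay higher in each Kdm1a-ifKO library by a smaller margin. It stood at 3.10, 2.24 and 2.49 TPM in controls and at 4.04, 3.39 and 4.63 TPM in Kdm1a-ifKOs, with a log2FC of 0.62 (SE 0.190). The groups did not overlap. The log2FC lay between 0.50 and 0.76 with a library left out.

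St14, which encodes matriptase, was rare in every library. It had 12, 9 and 13 counts in controls and 16, 31 and 23 counts in Kdm1a-ifKOs. The groups did not overlap, but the highest value came from Kdm1a-ifKO 2, and the log2FC of 0.99 (SE 0.334) was 0.73 without that library. The control libraries alone would not have passed the filter on low counts, so being tested was not independent of the difference. At a mean of 0.312 TPM in controls and 0.625 TPM in Kdm1a-ifKOs, matriptase transcript was far below that of its inhibitors in both groups. St14 lies at chr9:31089402-31131853, where it overlaps the antisense pseudogene Gm16071.

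Prss8, which encodes the membrane-anchored protease prostasin, was removed by the filter on low counts. Its counts were 6, 9 and 7 in controls and 5, 29 and 9 in Kdm1a-ifKOs. Only Kdm1a-ifKO 2 stood out, and the other 2 Kdm1a-ifKO libraries lay at 5 and 9 counts, within or beside the control range. Prss8 (chr7:127925716-127930104) also overlaps Kat8 on the opposite strand.

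The high values of St14 and Prss8 came from the library with the most meningeal and fibroblast transcript. In Kdm1a-ifKO 2 Col1a2 had 526 counts against 114 to 209 in the other 5 libraries, and Slc6a13, a transporter of the leptomeninges, had 346 against 60 to 137. Col1a1 had 311 against 117 to 135. The margin was small for Dcn, at 1279 against 452 to 1195, and for Lum, at 93 against 43 to 77. The part of meningeal and fibroblast transcript in the St14 and Prss8 values was not tested. Tmprss9 was lowest of the Kdm1a-ifKOs in that library, at 58 counts against 66 and 65, and Spint1 differed little between the 3, at 635, 656 and 683 counts. In bulk tissue, a change in the number of cells that express a gene and a change in RNA per cell cannot be told apart.

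**Figure D2:**
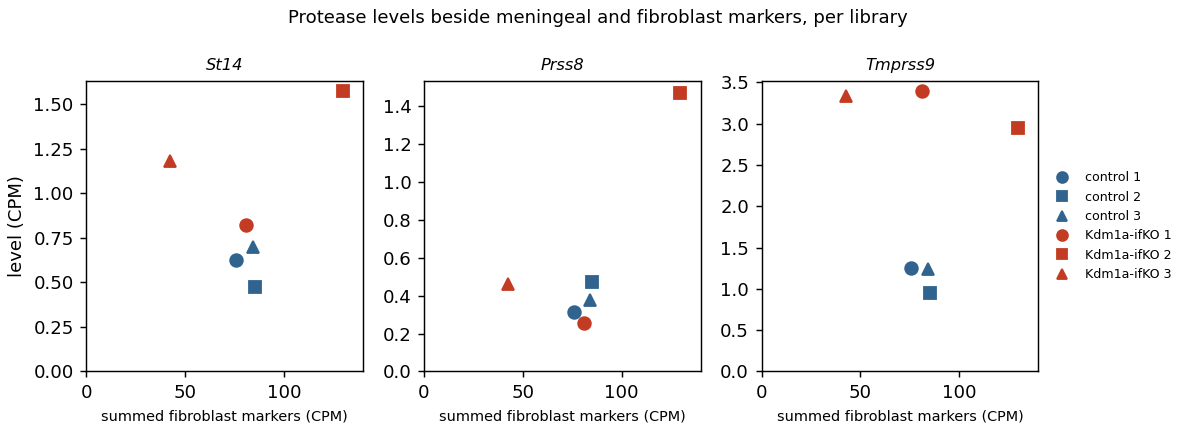
Level in CPM of St14, Prss8 and Tmprss9 (y axes from 0) against the summed CPM of 5 meningeal and fibroblast markers (x axis), with 1 point per library (blue, control; red, Kdm1a-ifKO). The square of Kdm1a-ifKO 2, at 129.7 CPM of markers, is the highest point for St14 and Prss8 and the lowest of the red points for Tmprss9.

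Of the HGF and MSP pathway genes, Hgf and Met overlapped between the groups, Mst1r did not, and Hgfac was removed by the filter on low counts. Hgfac, the secreted activator of the Hgf precursor, had 6, 3 and 1 counts in controls and 7, 1 and 8 in Kdm1a-ifKOs. These values overlap, and the ratio of the summed counts was 1.55 with an exact 95% binomial interval from 0.661 to 3.82, which covers counting error only. This interval includes equal levels in both groups.

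Hgf, the ligand, stood at 49, 46 and 92 counts in controls and at 60, 48 and 50 in Kdm1a-ifKOs. A single control library was far above the rest, and the log2FC of −0.29 (SE 0.268) turned to 0.12 without control 3. The receptor Met had 58, 69 and 89 counts in controls and 81, 99 and 73 in Kdm1a-ifKOs. Its groups overlapped, with a log2FC of 0.18 (SE 0.192). Mst1r, the receptor tyrosine kinase for MSP, had 77, 75 and 59 counts in controls and 93, 88 and 84 in Kdm1a-ifKOs. The groups did not overlap, but the difference was small, with a log2FC of 0.28 (SE 0.158).

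As sums, the inhibitors changed more than the proteases, and Spint1 accounted for most of the gain. Spint2 alone was 2.07 times as high in Kdm1a-ifKOs, below the 2.81 times of Tmprss9. Spint1 and Spint2 together gave 13.2, 16.1 and 13.6 TPM in controls and 68.2, 72.8 and 71.3 TPM in Kdm1a-ifKOs. The 4 membrane proteases together gave 5.42, 4.48 and 4.94 TPM in controls and 8.56, 10.5 and 9.73 TPM in Kdm1a-ifKOs. Both sums were higher in each Kdm1a-ifKO library than in any control. The ratio of inhibitor to protease transcript was 2.92 ± 0.601 in controls and 7.40 ± 0.534 in Kdm1a-ifKOs (n = 3 each), so it was 2.53 times as high in Kdm1a-ifKOs.

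**Figure D3:**
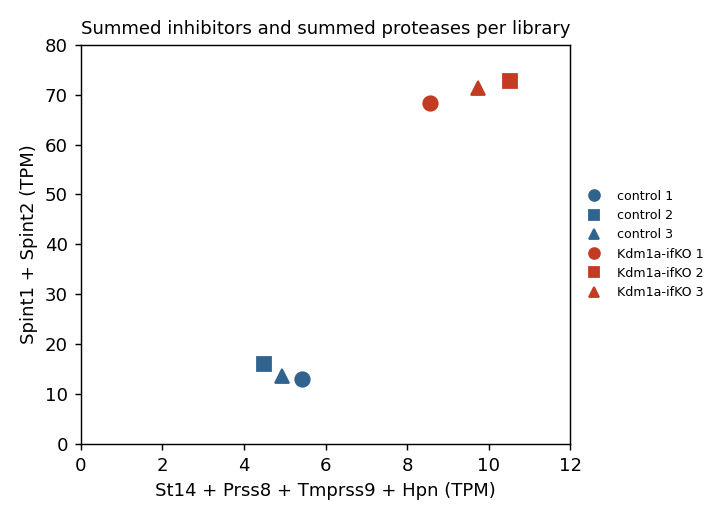
Summed level of Spint1 and Spint2 (y axis, TPM) against the summed level of St14, Prss8, Tmprss9 and Hpn (x axis, TPM), both axes from 0, with 1 point per library (blue, control; red, Kdm1a-ifKO). The controls lie between 13.2 and 16.1 TPM of inhibitors and the Kdm1a-ifKOs between 68.2 and 72.8 TPM, at protease sums of 4.48 to 5.42 and 8.56 to 10.5 TPM.

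Among the other genes, Tmprss9 moved from place 7 to place 5 and Hgf from 6 to 8 in TPM. In controls Spint1, Mst1r, Hpn, Met and Hgf followed Spint2 in TPM, and from Spint1 to Hgf no gene lay above its next neighbour in all libraries. In Kdm1a-ifKOs Hpn at 4.02 ± 0.622 TPM, Mst1r at 3.61 ± 0.186 TPM and Tmprss9 at 3.38 ± 0.234 TPM followed the inhibitors with overlapping libraries. Tmprss9 had been at 1.19 ± 0.182 TPM in controls, below each library of Hgf. St14 and Hgfac were the lowest of the 10 genes in both groups, with overlapping libraries.

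A wider list of 77 pathway genes was examined beside the 10, and 32 of them were expressed well enough to be tested. Of these, 3 were called higher at an adjusted p under 0.05, and edgeR called 0 lower, where 2 had an unadjusted p under 0.05 and DESeq2 also called 0. This is a share of 3 in 32, beside the 6.04% of all tested genes called higher. Of the 3, 2 (Prss41 and Cldn3) passed the filter on low counts only through the Kdm1a-ifKO libraries. Their place among the tested genes is thus not independent of the difference. The lists were also drawn up with earlier results of these data known. Nothing is read from the share, and the calls and adjusted p-values of listed genes are given as a description. The median log2FC of the 32 was 0.05 and that of all tested genes was near 0.

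Prss41 was the only gene called among the other membrane-anchored serine proteases, of which 4 of 19 were tested. It encodes a protease known from the testis, and it had 2, 2 and 1 counts in controls and 11, 11 and 14 in Kdm1a-ifKOs. The groups were separate but the counts were few, and the control libraries alone would not have passed the filter, with a log2FC of 2.71 (SE 0.526, adjusted p = 0.00592 in edgeR). The ratio of summed counts was 6.97, with an exact 95% binomial interval from 2.73 to 22.8. DESeq2's independent filter gave it no adjusted p. The relatives Tmprss5, Tmprss6 and Tmprss7 were tested and had log2FC of −0.08, −0.39 and −0.25 without passing the test.

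Plxnb1 was the only gene called of 11 MET signalling partners, all of them tested. It encodes plexin B1, a semaphorin receptor that can associate with Met, and had 2668, 2641 and 2593 counts in controls and 3231, 3433 and 3344 in Kdm1a-ifKOs. The difference was small beside that of Spint1 but well outside the replicate spread, with a log2FC of 0.29 (SE 0.0482, adjusted p = 0.00185 in edgeR). The other 10 partners lay between a log2FC of −0.23 and 0.26 and were not called, although 3 of them had an unadjusted p under 0.05. These were the adaptor Gab1 (log2FC 0.26, adjusted p = 0.0554 in edgeR), the exchange factor Sos1 (−0.23, adjusted p = 0.0566) and the kinase subunit Pik3r1 (−0.17, adjusted p = 0.119).

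Cldn3, a claudin of epithelial tight junctions, was the only gene called in the epithelial list, of which 3 of 14 were tested. It had 9, 4 and 1 counts in controls and 83, 90 and 76 in Kdm1a-ifKOs, so it too was tested only because it was high in the latter, with a log2FC of 4.07 (SE 0.354, adjusted p = 8.77e-06 in edgeR). The transcription factor genes Grhl1 and Ovol2 were tested and not called, at log2FC of −0.11 and 0.21. The keratins were rare. Krt8 had 7, 6 and 8 counts in controls and 3, 2 and 2 in Kdm1a-ifKOs, and Krt18 had 9, 5 and 7 against 10, 7 and 10. The epithelial cadherin Cdh1 had 1, 2 and 13 counts in controls and 0, 34 and 6 in Kdm1a-ifKOs, again with the highest value in Kdm1a-ifKO 2.

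No gene was called among the other Kunitz-domain inhibitors (5 of 12 tested), the secreted activators and inhibitors of the HGF and MSP axis (7 of 13 tested) or the partners of matriptase and prostasin (2 of 8 tested). At an unadjusted p under 0.05, edgeR had 0, 1 and 0 genes in these lists, and DESeq2 called 0. App, of which only some isoforms carry a Kunitz domain, had a log2FC of −0.03 (SE 0.0497) over all isoforms, and Spint3 and Spint5 had no count in any library. Mst1, the ligand gene of Mst1r, had 9, 15 and 10 counts in controls and 14, 20 and 12 in Kdm1a-ifKOs.

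**Figure D4:**
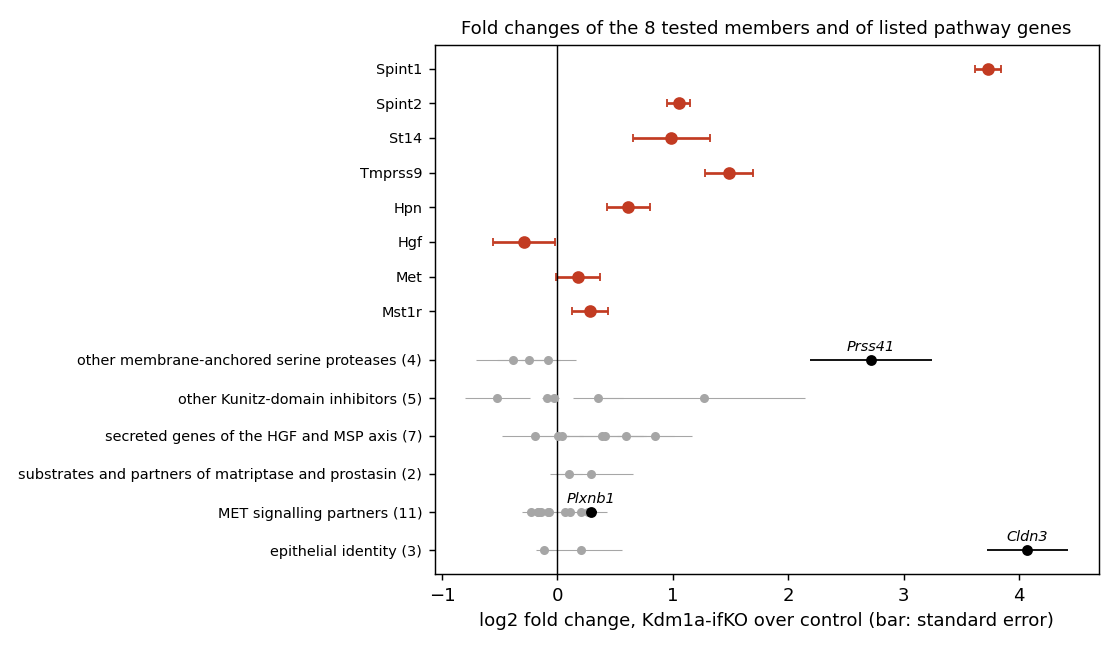
log2 fold change of Kdm1a-ifKO over control (x axis) for the 8 tested members (red) and, in 1 row per list, for the 32 tested pathway genes (black where the adjusted p was under 0.05, grey otherwise), with bars for the standard error. Spint1 at 3.73 and Cldn3 at 4.07 lie farthest to the right, while most pathway genes lie near 0.

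The 5 genes whose log2 CPM followed Spint1 most closely over the 6 libraries were Slc16a3 (r = 0.999), Angptl8 (0.999), Htr6 (0.999), Prob1 (0.998) and Zfp185 (0.998), among 15231 genes with a mean of at least 1 CPM. These r values describe mainly the step between the groups, which the 6 points share. Slc16a3, a lactate transporter, had a log2FC of 1.89 (SE 0.147) and Htr6, a serotonin receptor, of 0.67 (SE 0.118). No member and no listed pathway gene was among the 5.

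The neighbours of Spint1, Spint2 and Tmprss9 on the chromosome did not pass the test. On either side of Spint1, Zfyve19 at 20.3 kb had a log2FC of 0.04 (SE 0.0798) and Rhov at 19.7 kb had one of −0.46 (SE 0.165, adjusted p = 0.104 in edgeR). Spint2 lies between Yif1b, at a log2FC of −0.15 (SE 0.108), and Ppp1r14a, at 0.39 (SE 0.130, adjusted p = 0.0837 in edgeR). Tmprss9 lies between Sppl2b and Lmnb2, at 0.06 (SE 0.0689) and −0.03 (SE 0.0809).

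The ChIA-PET library held 27786 CTCF loops, each a pair of anchors joined by at least 3 paired-end tags (PETs). An anchor lay within 10 kb of the body of 8 of the 10 genes, and 56.9% of tested genes had one. As this is a single library, the loops are described without a test. Hgf and Met had no anchor within that distance, but 2 and 3 loops contained them whole. Loops also contained each of the other genes whole, from 1 loop at Hgfac to 20 at Spint2, with 6 at Spint1. Counted by anchors within 10 kb, as below, the other genes had between 3 loops (Spint1) and 15 loops (Mst1r), and a tested gene had a median of 1.

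At Spint1 all 3 loops were anchored at the end of the gene and none near its start. The anchors shared chr2:119249161-119249717, a stretch of 557 bases that begins in the 3′ UTR of the last exon and runs past the end of the gene. The strongest loop, with 37 PETs, spanned 37.7 kb to Vps18, a subunit of the endosomal tethering complexes, whose log2FC was 0.03 (SE 0.0670). A loop of 3 PETs spanned 88.9 kb to the Notch ligand gene Dll4, whose log2FC was 0.27 (SE 0.173, adjusted p = 0.362 in edgeR). The third loop, of 5 PETs, reached 29650 kb along the chromosome, to an anchor without a tested gene within 10 kb.

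Spint2 had 13 loops with 102 PETs in all, and their anchors flanked the gene without touching it. Of these loops, 7 had the near anchor centred between −8.09 and −6.27 kb from the start, and 6 had it between 8.24 and 9.16 kb past the end. The strongest, with 18 PETs, spanned 49.1 kb around the whole gene to the side of Ppp1r14a and Dpf1. A loop of 3 PETs joined the flank to Ryr1, the ryanodine receptor calcium channel, at a distance of 195.8 kb. Ryr1 rose from 53.9 ± 0.260 to 96.7 ± 4.72 CPM (log2FC 0.84, SE 0.0560, adjusted p = 6.36e-07 in edgeR), and it was the only gene called of the 6 tested genes at far anchors of Spint2 loops.

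Tmprss9 had 11 loops with 95 PETs, and all were anchored inside the gene, between 3.46 and 10.2 kb from its start. The strongest, with 42 PETs, spanned 71.3 kb to a group of genes with Dot1l, Plekhj1, Sf3a2, Amh and Jsrp1. Of the 8 tested genes at far anchors, Jsrp1 rose from 1.88 ± 0.440 to 3.17 ± 0.235 CPM (log2FC 0.75, SE 0.209, adjusted p = 0.0412 in edgeR), and Gng7, a G protein gamma subunit gene, from 213.1 ± 6.58 to 268.5 ± 19.3 CPM (log2FC 0.33, SE 0.0587, adjusted p = 0.00304 in edgeR). For Spint1, Spint2 and Tmprss9 together, 3 of 16 tested genes at far anchors were called higher, beside 6.04% of all tested genes, and their median log2FC was 0.10.

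**Figure D5:**
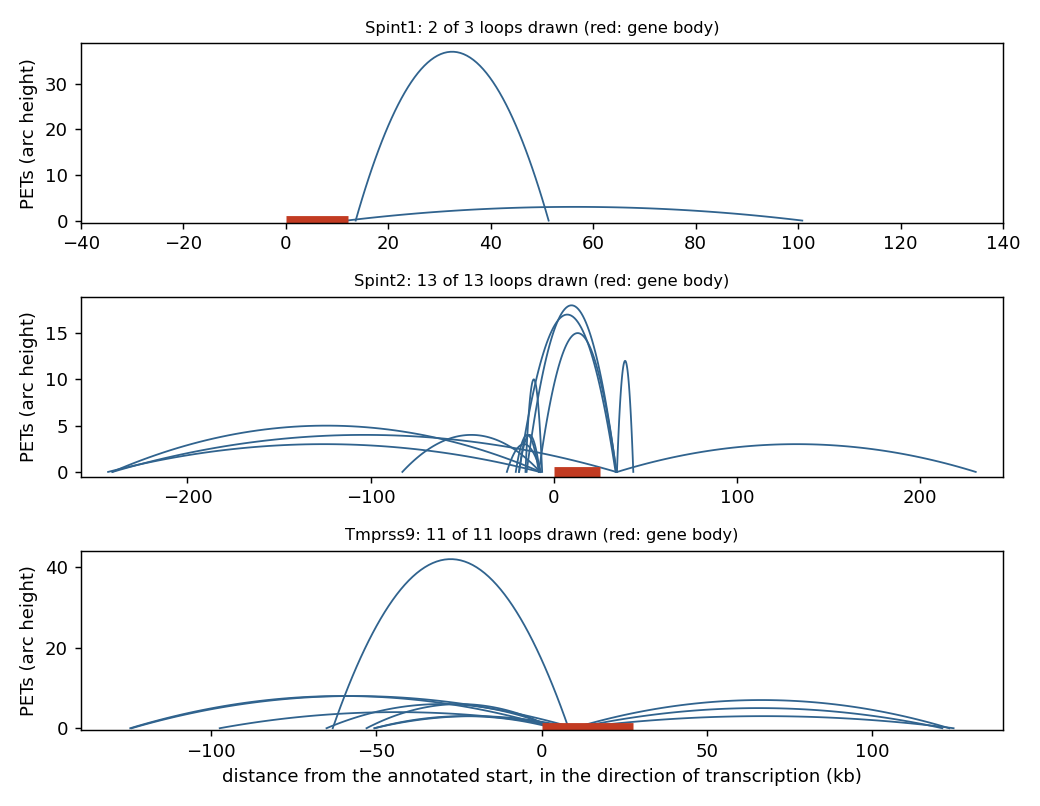
CTCF loops with an anchor within 10 kb of Spint1, Spint2 and Tmprss9, drawn as arcs between anchor centres against the distance from the annotated start in kb, with the number of PETs as the height of the arc and the gene body in red. The strongest arcs have 37, 18 and 42 PETs, and the Spint1 loop of 29650 kb is not drawn.

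Among the other 7 genes, Mst1r had the most loop contacts, 15 loops with 287 PETs, of which the strongest held 176 PETs and led to Camkv, Traip and Uba7. Traip rose (log2FC 0.44, SE 0.105, adjusted p = 0.0312 in edgeR), and Camkv and Uba7 were not called, at log2FC of 0.12 and 0.24. Its ligand gene Mst1 lies on the same chromosome, with 173.6 kb between the starts, and the farthest Mst1r anchor ended 10.5 kb before it. St14 and Hpn had 8 loops each, with 90 and 33 PETs, Hgfac had 6 with 49 PETs and Prss8 had 4 with 23 PETs. The number of loops ranged from 3 to 13 in Spint1, Spint2 and Tmprss9 and from 0 to 15 in the other 7 genes.

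RefSeq start windows of 300 bases, from 250 before to 50 after the start, were matched for 8 of the 10 genes, with 11 windows in all. Spint1 had 28 CpGs and Spint2 had 26 in this window, against a median of 7 over 32851 mouse windows, and 85.8% and 83.1% of windows had fewer. Met had 34. The window of Tmprss9 had 1 CpG, but its RefSeq start lies 7.97 kb inside the gene as GENCODE annotates it, so this is not the start region of the longer transcript. The letters GGGCGG or their complement occurred 3 times each in the windows of Spint1, Spint2 and Met and in the first window of Hpn, 2 times in the first of Mst1r, and in 35.7% of all windows.

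The letters CACCTG, in either direction, were found 3 times in the window of Spint2 and in the first of Hpn, 2 times in that of Hgfac, and 1 time each in those of Tmprss9 and Met. The other 6 windows, that of Spint1 among them, held 0, with 20.2% of all windows holding them. TATAAA was found in none of the 11 windows and in 13.6% of all windows, and TTCAGCACC in none of the 11 and in 0.371% of all. These matches are letters only, and no binding was measured here.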

How the data were processed

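RNA-seq of 3 control and 3 Kdm1a-ifKO hippocampi and 1 CTCF ChIA-PET library were analysed. The other samples of the series, such as the 4C-seq and ChIP-seq libraries, were not analysed here. The authors trimmed single-end poly-A reads with cutadapt 1.18, aligned them to mm10 with HISAT2 2.1.0, kept well-mapped reads and made the deposited counts per Ensembl gene with HTSeq 0.11.1. The counts are raw. The strand setting of the counting is not given in the sources used here. The deposited PET counts of the loops came from ChIA-PIPE, which requires 3 or more PETs per loop and CTCF peaks under the anchor pair. The depth before loop calling is not known from them.

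Counts were joined to GENCODE M21 by Ensembl identifier (48349 of 48795 matched) and fitted with edgeR 4.0.16 (R 4.3.3): filterByExpr, TMM, the robust quasi-likelihood test on a model of genotype alone, with p-values adjusted over 16799 genes by the Benjamini-Hochberg method. The fit was checked on simulated counts with known fold changes. SE is the absolute log2FC over the root of F. CPM uses TMM sizes, and TPM divides by summed exon length. p-values set the difference between the groups against the spread between mice, which edgeR estimates with information shared across genes. Anchors up to 10 kb from a gene body were assigned to that gene. Sequences came from RefSeq tables of GRCm38.p6, the build of the loops.

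The members and all gene lists were chosen with earlier results of these data known. Named were the members, Kdm1a, pathway genes with an adjusted p under 0.05, the nearest tested neighbours and far-anchor genes (at most 10 per gene) of Spint1, Spint2 and Tmprss9, and the 5 genes most like Spint1. Tmprss5, Tmprss6, Tmprss7, Pik3r1, Grhl1, Ovol2, App, Spint3, Spint5, Mst1, Krt8, Krt18, Cdh1, Gab1, Cldn7 and Sos1, the marker genes, the other genes that overlap a member and Camkv, Traip and Uba7 fall outside this rule and were chosen after their values were seen. The values of 1 listed gene are not reported here. Alternatives were DESeq2 1.42.0, other size factors and filters, each library left out, a replicate block and other loop rules. CPM in place of TPM, ratios without Prss8 and ratios with libraries left out were added after seeing the data.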

Additional observations from a re-analysis of the deposited data

How the results depend on the processing

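Over 12 alternative fits (DESeq2, other size factors, other filters, the replicate block and each library left out), the log2FC of Spint1, Spint2 and Tmprss9 lay between 3.59 and 3.82, 0.98 and 1.15, and 1.36 and 1.56. As these genes were chosen on the same contrast, this describes the size of the values and is no support for them. Hgf reversed to 0.12 without control replicate 3, with a range of −0.48 to 0.12 over the libraries left out. Prss8 and Hgfac, which the filter removed, had a log2FC of 0.91 (SE 0.440) and 0.62 (SE 0.676) with no filter. The ratio of inhibitors to proteases in Kdm1a-ifKOs over that in controls lay between 2.04 and 2.86 under its 8 alternatives. The rank of Spint1 in controls was 6 in CPM in place of 2 in TPM, as only TPM divides by exon length. This length is 2.77 kb for Spint1, and 4.10, 5.01, 7.19 and 7.68 kb for Hpn, Mst1r, Hgf and Met.

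Of the pathway genes, no filter called 5 higher, adding Gab1 and Cldn7 (0, 0 and 0 counts in controls, 2, 9 and 2 in Kdm1a-ifKOs), and 1 lower, Sos1. Gab1 was also called higher with upper-quartile factors, with at least 10 counts summed and without control replicate 1. Without one library the number called higher was 3 to 4. Without one library the number called lower was 0 to 1, with Sos1 called without control replicate 1. Over all genes, those lower with a log2FC below −1 numbered 11, and 6 with DESeq2, 49 with no filter, 7 with the replicate block and 4 to 29 with a library left out. Without control 3, Kdm1a-ifKO 1, Kdm1a-ifKO 2 and Kdm1a-ifKO 3 they numbered 6, 4, 29 and 7. By adjusted p alone 1014 genes were higher, and 646 without Kdm1a-ifKO 3, the lowest of a range of 646 to 876 with a library left out. Those lower numbered 473, with 1090 with no filter, 249 with the replicate block and 137 to 584 with a library left out (164 without Kdm1a-ifKO 1, 137 without Kdm1a-ifKO 3). The causes were not tested.

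Same replicate numbers gave no sign of pairing: deviations of same-numbered libraries correlated at −0.0316, −0.0886 and −0.144 over genes. The other pairs lay between −0.0876 and 0.157, with control 3 and Kdm1a-ifKO 2 the highest. Deviations from a mean of 3 libraries are tied to each other, so these values cannot show that same-numbered mice were unpaired. Whether samples were matched in another way was not tested, and the replicate block does not cover it. With the replicate block, 3 pathway genes were called and 3 members lay past the same threshold, as without it.

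Loops at the members numbered 68 over 8 genes, with 38 at no fewer than 5 PETs, 18 at no fewer than 10 PETs, 26 at 5 genes with the anchor overlapping the body, and 103 within 25 kb, as the rules' own construction requires.

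Prss8, Hgfac and St14 had 22, 10 and 34 counts over the 3 controls, and the exact 95% binomial intervals of their count ratios, which cover counting error only, ran from 1.11 to 3.32, 0.661 to 3.82 and 1.31 to 3.10. With Kdm1a-ifKO 2 left out, Prss8, Hgfac and St14 had 14, 15 and 39 counts over the remaining Kdm1a-ifKO libraries. The Prss8 interval above 1 rests on the 29 counts of Kdm1a-ifKO 2. With 3 mice against 3, an exact permutation test of a single value cannot give a p under 0.1.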
